A study of Mus musculus with 59 samples.

Results

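The activity-induced immediate early genes of neurons, 33 of the 54232 mouse genes listed for every library, were followed across 5 brain regions and 3 genotypes. The 33 were a list of known members of this class, chosen by symbol with earlier results of these data known, and all of them were found. The data are 59 RNA sequencing libraries from 12 mice aged 10 weeks on a C57BL/6 background (C57BL/6J in the study's methods), 4 of each genotype, which are named by genotype and number (WT-70, for example). The genotypes were wild type (WT), *Atxn1* 154Q/2Q (called 154Q here), and *Atxn1* 154Q[V591A;S602D]/2Q (called 154Q-AXH). The 154Q mice carry an expanded CAG repeat knocked into 1 copy of *Atxn1* and model spinocerebellar ataxia type 1. The 154Q-AXH mice carry the same expanded allele with the substitutions V591A and S602D in its AXH domain, which disrupt the binding of ATXN1 to the repressor Capicua (CIC). In both mutants the expanded allele lies at its own locus, so no transgene promoter or Cre line sets where it is expressed, and neither the repeat nor the substitutions can be seen in gene counts. Every mouse gave 1 library from each of the 5 regions (cortex, hippocampus, striatum, brainstem, and cerebellum), except that 3 brainstem libraries of 154Q-AXH were analyzed. Within a region the libraries of a genotype are different mice. The comparisons ask in which regions these genes differ between mutant and WT mice, and whether the substitutions alter that difference.

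Immediate early genes are transcribed within minutes of neuronal firing, without the need for new protein, and fall back soon after. Calcium entering through synaptic receptors and voltage-gated channels activates kinases that act on factors already bound near these genes, such as CREB, SRF, and MEF2. Many of the products are transcription factors themselves, others restrain the signal that induced them, and a few act at the synapse. Because a short bout of activity induces them, their level in a dissected brain also reflects what an animal experienced shortly before death, including handling.

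Several libraries stood apart from their group. Counted read pairs per library (in M) ranged from 28.1 to 112, with medians of 35.3 for striatum, 39.7 for cortex, and 83.1 to 89.6 elsewhere. *Slc17a7*, a marker of excitatory neurons of cortex and hippocampus, was at 1019 to 1515 CPM (read counts per M counted, the libraries scaled by edgeR's TMM factors) in 10 of the 12 striatal libraries, against 1273 to 1752 CPM in the cortex. Those striatal libraries thus held a cortical marker near its cortical level. The summed markers of striatal spiny projection neurons (*Drd1*, *Drd2*, *Ppp1r1b*, and *Adora2a*) were at 875 to 3047 CPM in WT, 293 to 567 CPM in 154Q, and 275 to 1608 CPM in 154Q-AXH striatal libraries. WT-220 and 154Q-AXH-217 had the highest of these sums in their groups. The hippocampal library of 154Q-76 held 297 CPM of brainstem markers, and no other hippocampal library held more than 1.55 CPM. In the cortical library of WT-221 the sex-linked transcripts *Xist* and *Ddx3y* did not match those of the mouse's other libraries. For the cortical libraries of 154Q-76 and 154Q-AXH-207, the names of the deposited files and the sample labels were exchanged, and the labels were used.

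Promoter sequence is shown for *Ier5l* and *Homer1*, which were lower than WT in both mutants in the hippocampus, striatum, and cortex, and for *Fos*, which passed the test in no region. Each line is the 250 bases before a RefSeq transcription start in build GRCm38.p6, on the strand of the gene, and capitals mark the CREB core TGACG and the CIC octamers TGAATGAA, TGAATGGA, TCAATGAA, and TCAATGGA, found on either strand.
Ier5l, chr2:30474200-30474449, minus strand: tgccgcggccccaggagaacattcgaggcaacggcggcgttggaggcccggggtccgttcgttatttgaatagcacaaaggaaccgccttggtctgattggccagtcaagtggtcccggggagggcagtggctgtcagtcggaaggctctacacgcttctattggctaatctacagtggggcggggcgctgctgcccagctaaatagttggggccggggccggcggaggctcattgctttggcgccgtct
Homer1, chr13:93303507-93303756, plus strand: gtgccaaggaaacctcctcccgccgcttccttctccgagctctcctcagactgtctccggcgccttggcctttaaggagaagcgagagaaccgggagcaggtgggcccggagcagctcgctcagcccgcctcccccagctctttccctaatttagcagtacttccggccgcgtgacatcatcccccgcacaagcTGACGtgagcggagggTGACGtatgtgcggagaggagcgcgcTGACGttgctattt
Fos, chr12:85473640-85473889, plus strand: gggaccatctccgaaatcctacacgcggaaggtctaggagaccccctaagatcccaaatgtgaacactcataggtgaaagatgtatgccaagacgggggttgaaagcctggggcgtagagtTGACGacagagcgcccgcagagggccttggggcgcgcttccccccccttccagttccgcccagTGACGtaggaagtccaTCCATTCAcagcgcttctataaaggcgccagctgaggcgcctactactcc

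The *Ier5l* window held none of these motifs. The *Homer1* window shown held 3 CREB cores, its other window in the table held none of the motifs, and the *Fos* window held 2 CREB cores and 1 CIC octamer. The table of promoters held 24 of the 33 genes in 37 windows, some of which overlap. A CREB core was in 21 of the 37 windows (56.8%), against 17.8% of all 32851 windows. The full cyclic AMP response element TGACGTCA, which contains the CREB core on both strands, was in the windows of *Btg2*, *Dusp1*, and *Maff* (8.11% of windows, against 1.55% of all). A CIC octamer was in those of *Fos* and *Nr4a1* (5.41%, against 3.19%). The CArG box, the site that SRF reads, was in 5 of the 37 windows (13.5%, against 1.47%). These belonged to 2 of the 24 genes, *Dusp5* and *Egr2*, and most were *Egr2* windows, some of which overlap, so the share by window counts *Egr2* repeatedly. These matches describe letters within short windows and were not tested for binding.

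In WT mice most of the 33 genes were highest in the forebrain. The cortex held the highest mean of 23 genes, the hippocampus of 5, the striatum of 2 (*Homer1* and *Gadd45g*), the cerebellum of 2 (*Dusp5* and *Atf3*), and the brainstem of 1 (*Maff*). All 33 differed between regions in edgeR's quasi-likelihood test at a Benjamini-Hochberg adjusted p under 0.05, the threshold used throughout, as did 90.3% of all genes tested. *Arc*, whose product controls the removal of AMPA receptors from synapses, averaged 383 ± 94.4 CPM (SD, n = 4) in the cortex, 269 ± 68.5 in the striatum, 146 ± 57.0 in the hippocampus, 28.3 ± 2.93 in the brainstem, and 17.6 ± 0.927 in the cerebellum. *Ier5l*, a relative of the stress-responsive gene *Ier5*, followed the same order, from 42.0 ± 3.64 CPM in the cortex and 41.2 ± 4.53 in the striatum to 12.3 ± 1.75 in the hippocampus, 6.61 ± 0.794 in the brainstem, and 1.66 ± 0.393 in the cerebellum. For both genes the cortex and striatum overlapped and no other neighbors in the order did. *Fos* was less graded, with 59.2 ± 13.1 CPM in the cortex, 29.9 ± 7.43 in the striatum, 26.7 ± 8.28 in the cerebellum, 15.8 ± 9.34 in the hippocampus, and 15.7 ± 2.36 in the brainstem, and below the cortex every pair of neighbors overlapped. Most striatal libraries held a cortical marker near its cortical level, so the part of cortical tissue in these striatal levels cannot be told apart. The steepest gradient was that of *Egr3*, 486-fold higher in the cortex than in the cerebellum. *Dusp5*, a nuclear phosphatase of ERK, was highest in the cerebellum at 122 ± 8.19 CPM and lowest in the brainstem at 6.01 ± 1.5 CPM, with no overlap between neighbors. Per kilobase of exon, the strongest of the 33 in WT cortex were *Arc* (125 CPM per kb) and *Egr1* (110 CPM per kb), and the weakest was *Atf3* (0.426 CPM per kb).

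The genes varied more between mice of 1 genotype than most genes did. The residual SD of log2 CPM about the genotype means had a median over the members of 0.359 in the cortex, 0.310 in the striatum, 0.302 in the hippocampus, 0.237 in the cerebellum, and 0.185 in the brainstem. The medians over all genes tested were 0.139, 0.199, 0.199, 0.140, and 0.135. *Fos* had an SD of 0.598 (cerebellum), 0.568 (cortex), 0.528 (hippocampus), 0.401 (striatum), and 0.199 (brainstem). *Npas4*, a neuronal factor induced by calcium, varied as much, in the same order of regions at 0.657, 0.664, 0.602, 0.499, and 0.260. At the other end, *Bdnf* (0.0948), *Klf10* (0.113), and *Ier5* (0.122) were below the median of all genes in the cortex, and *Homer1* (0.152) and *Ier5l* (0.202) were above it.

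No member was called higher in either mutant in any region. In 154Q, members called lower were 3 of 32 tested in the cerebellum (9.38%), 0 of 33 in the brainstem, 13 of 33 in the hippocampus (39.4%), 12 of 33 in the striatum (36.4%), and 13 of 33 in the cortex (39.4%). Of all genes tested, 5.22%, 0.538%, 5.91%, 5.68%, and 11.1% were called in these regions, and 3.12%, 0.4%, 3.39%, 3.76%, and 6.71% were called lower. In 154Q-AXH, members called lower were 5 of 32 in the cerebellum (15.6%), 0 of 33 in the brainstem, 8 of 33 in the hippocampus (24.2%), 13 of 33 in the striatum (39.4%), and 17 of 33 in the cortex (51.5%). Of all genes, 2.21%, 0.0138%, 1.3%, 1.35%, and 7.15% were called, and 1.13%, 0.0138%, 0.671%, 1.08%, and 4.76% were called lower. In the hippocampus, striatum, and cortex the members' share was several times that background in both mutants. The cerebellar share was above background in both mutants too, on 3 and 5 called members. Both mutants were compared with the same WT libraries, and the list was not chosen blind to these data. *Egr2* was too low to be tested in the cerebellum.

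**Figure D1:**
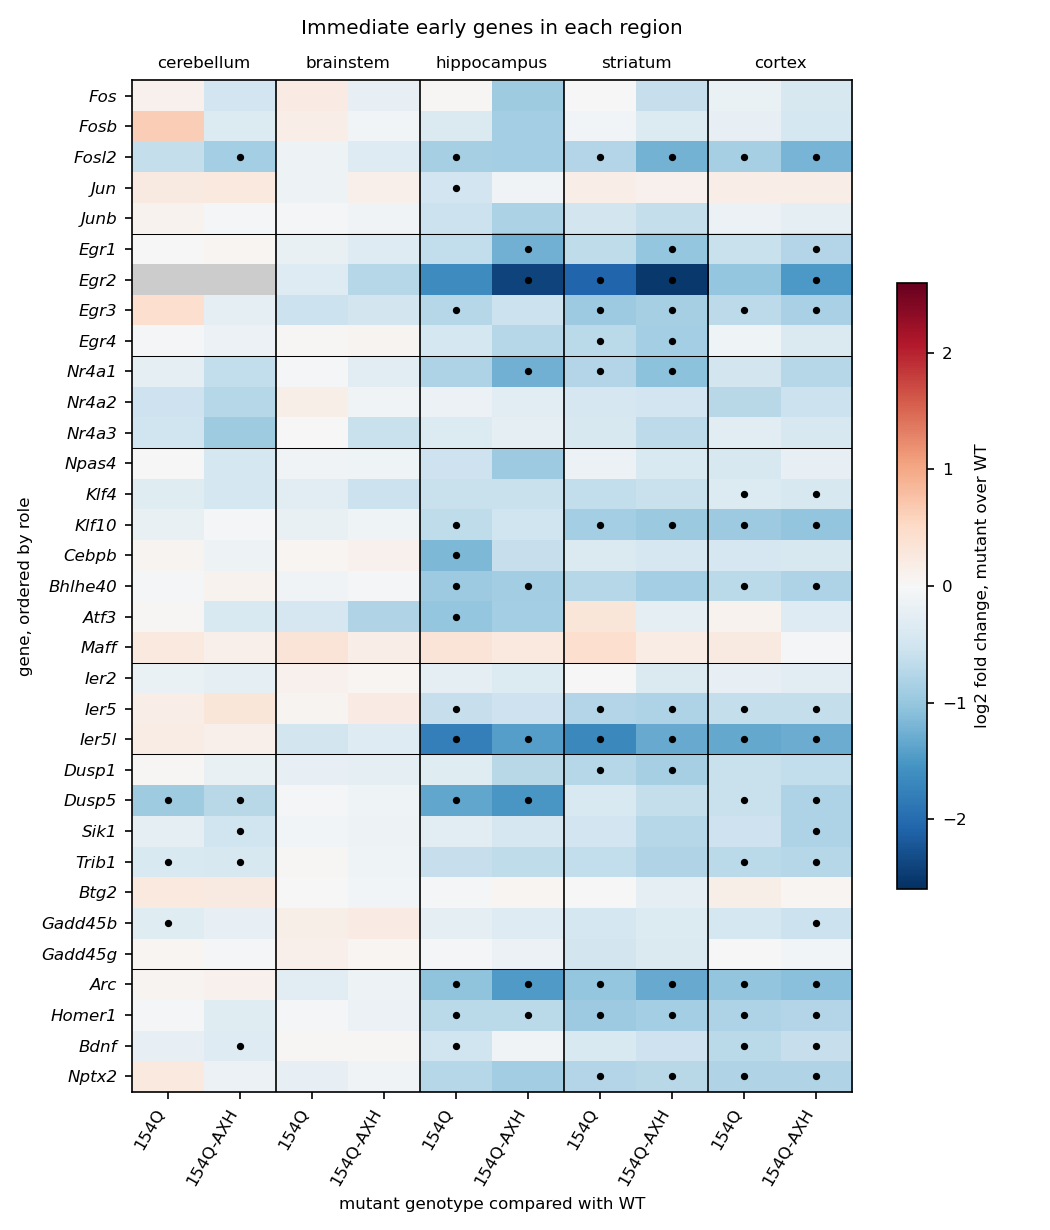
Log2 fold change of the 33 genes (rows, grouped by role) against WT for 154Q and 154Q-AXH in the 5 regions (columns), where blue is lower in the mutant, gray is not tested, and dots mark an adjusted p under 0.05. The dots all lie on blue cells, and most lie in the hippocampus, striatum, and cortex.

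The direction was shared beyond the calls. The median log2 fold change of the members was, in 154Q and 154Q-AXH, -0.58 and -0.70 for hippocampus, -0.49 and -0.67 for striatum, and -0.55 and -0.59 for cortex. In the cerebellum it was -0.00 and -0.23, and in the brainstem -0.05 and -0.11. All libraries of the mutant lay below all WT libraries for 17 and 21 members (hippocampus), 14 and 17 (striatum), 10 and 15 (cortex), 3 and 5 (cerebellum), and 2 and 4 (brainstem). The same held for 7.26% and 5.79%, 8.94% and 3.86%, 8.01% and 8.15%, 5.38% and 4.14%, and 3.22% and 4.3% of all genes tested. A mutant lay wholly above WT for *Btg2* in 154Q cerebellum, *Jun* in 154Q-AXH cerebellum, *Ier5* in 154Q-AXH brainstem, and *Maff* in 154Q striatum, none of which was called. Of all genes, 4.76%, 4.68%, 4.34%, and 8.17% lay wholly above WT in these comparisons.

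Cell type markers moved with genotype as well. In bulk tissue, fewer cells of a type and less RNA per cell cannot be told apart. The summed markers of excitatory forebrain neurons were 3552 to 4421 CPM in WT cortex, 2973 to 3221 in 154Q, and 3030 to 3435 in 154Q-AXH, and in the hippocampus 2609 to 2748, 1122 to 2209, and 2044 to 2355. They were thus below WT in every mutant library of both regions. The 154Q hippocampal range includes 154Q-76, whose library held brainstem markers. Of the 4 genes in this list, 2 were called lower in 154Q cortex and 1 in 154Q-AXH cortex, and 1 in 154Q hippocampus and 0 in 154Q-AXH hippocampus. The summed general neuron markers were 5441 to 5958 CPM in WT cortex, 4293 to 5150 in 154Q, and 4712 to 5560 in 154Q-AXH. Of these 5 genes, *Nefl*, *Rbfox3*, *Snap25*, and *Syt1* were lower and *Stmn2* higher in 154Q cortex, and *Rbfox3* was lower and *Stmn2* higher in 154Q-AXH cortex. The summed astrocyte markers in the cortex were 414 to 501 CPM in WT, 279 to 335 in 154Q, and 288 to 406 in 154Q-AXH. The summed cerebellar neuron markers were 2824 to 3142 CPM in WT cerebellum, 2461 to 2562 in 154Q, and 2666 to 2833 in 154Q-AXH. In the striatum the summed spiny projection neuron markers were 875 to 3047 CPM in WT, 293 to 567 in 154Q, and 275 to 1608 in 154Q-AXH. Of these 4 genes, 0 were called in either mutant, with median log2 fold changes of -1.65 and -0.90. The tissue content of the striatal libraries thus differed along with genotype, and the 2 cannot be told apart there. Blood markers, 5 genes that comprise hemoglobins and *Alas2*, were lower in some comparisons too. In the striatum they summed to 112.5 to 194 CPM in WT, 60.6 to 85.05 in 154Q (5 called lower), and 56.8 to 134 in 154Q-AXH (1 called lower). In the hippocampus they summed to 58.9 to 133 CPM in WT, 33.95 to 47.0 in 154Q (4 called lower), and 27.3 to 75.6 in 154Q-AXH (0 called). The part of these markers in the results was not tested.

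Only 3 members were called in all 6 forebrain comparisons (2 mutants in 3 regions): *Ier5l*, *Arc*, and *Homer1*. The 3 regions came from the same mice, and most striatal libraries held a cortical marker near its cortical level. A striatal call therefore need not be separate from a cortical one. *Fosl2*, *Egr3*, *Klf10*, and *Ier5* were called in 5, *Egr2*, *Bhlhe40*, *Dusp5*, and *Nptx2* in 4, *Egr1*, *Nr4a1*, and *Bdnf* in 3, *Egr4*, *Klf4*, *Dusp1*, and *Trib1* in 2, and *Jun*, *Cebpb*, *Atf3*, *Sik1*, and *Gadd45b* in 1. The other 10 were called in no region: *Fos*, *Fosb*, *Junb*, *Nr4a2*, *Nr4a3*, *Npas4*, *Maff*, *Ier2*, *Btg2*, and *Gadd45g*. These 10 had a median forebrain log2 fold change of -0.33 and a median SD between mice of 0.334. The 23 called at least once had -0.71 and 0.268, both of which enter the call.

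**Figure D2:**
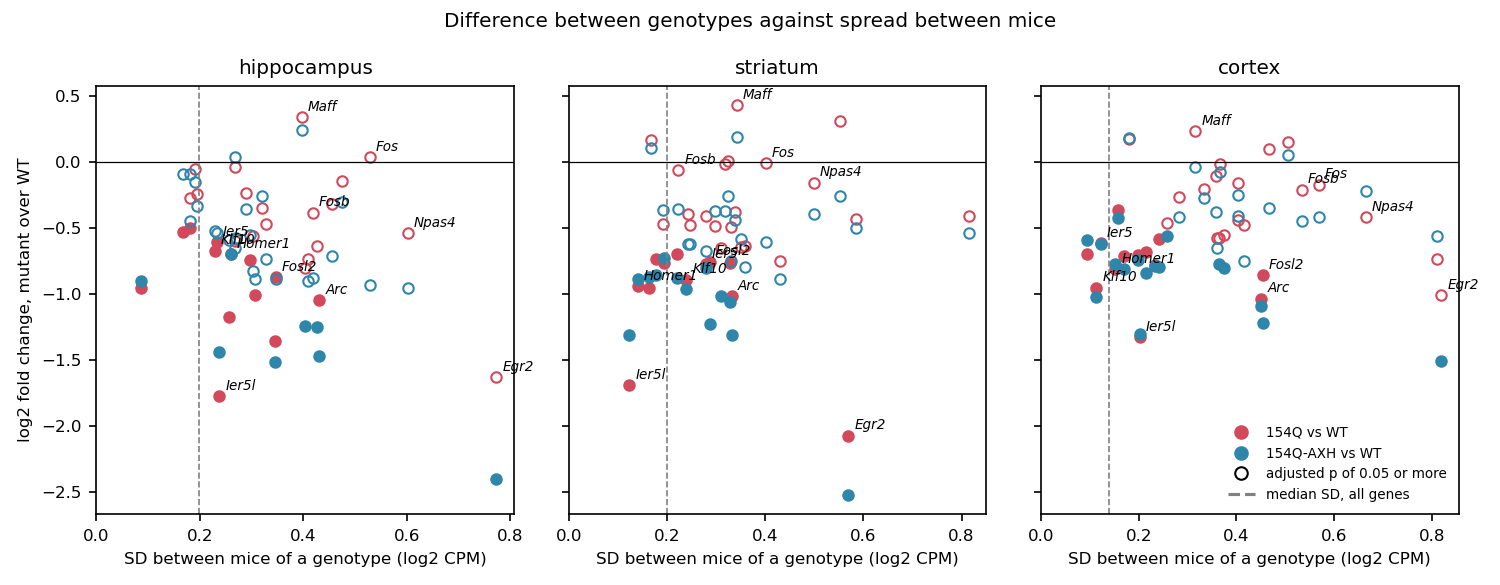
Log2 fold change of each member in the forebrain regions against its residual SD between mice of 1 genotype (log2 CPM), with 1 panel per region, filled points for an adjusted p under 0.05, open points otherwise, and a dashed line at the median SD of all genes. Of the 3 members called in all 6 comparisons, *Homer1* and *Ier5l* had a median SD over the regions of 0.152 and 0.202 and *Arc* one of 0.431, while the 10 called in none had a median of 0.334.

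Among the AP-1 subunits, *Fos*, the usual marker of activated neurons, was not called in any region. In the cortex it was at 42.8, 52.3, 64.5, and 71.2 CPM in WT, 40.1, 73.9, 58.7, and 32.7 CPM in 154Q, and 75.7, 20.9, 35.6, and 40.5 CPM in 154Q-AXH. The highest and the lowest of the 12 were both 154Q-AXH mice, and the genotypes overlapped. The log2 fold change was -0.17 in 154Q (95% interval -0.82 to 0.49, adjusted p = 0.787) and -0.42 in 154Q-AXH (-1.08 to 0.24, adjusted p = 0.5). In the striatum it was at 25 to 40.6 CPM in WT, 19.5 to 37.4 in 154Q, and 13.8 to 27.3 in 154Q-AXH, with log2 fold changes of -0.00 (-0.53 to 0.52, adjusted p = 0.991) and -0.60 (-1.14 to -0.07, adjusted p = 0.317). In the hippocampus WT *Fos* was at 29.7, 8.85, 14.7, and 10.5 CPM, 154Q at 14.0 to 19.5, and 154Q-AXH at 5.63 to 12, with log2 fold changes of 0.04 (-0.67 to 0.74, adjusted p = 0.967) and -0.93 (-1.66 to -0.20, adjusted p = 0.209). In 154Q-AXH the interval reached a loss of 1 log2 unit in all 3 of these regions, and in 154Q in none of them. In the cerebellum its log2 fold changes were 0.11 and -0.50 (adjusted p = 0.923 and 0.544), and in the brainstem 0.20 and -0.21 (adjusted p = 0.564 and 0.802).

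*Fosl2*, which encodes the AP-1 subunit FRA2, was lower in 154Q in the hippocampus (log2 fold change -0.87 ± 0.21 (SE), adjusted p = 0.0276), striatum (-0.75 ± 0.18, 0.0293), and cortex (-0.86 ± 0.25, 0.041). In 154Q-AXH it was lower in the striatum (-1.22 ± 0.18, 0.00612), cortex (-1.21 ± 0.26, 0.00971), and cerebellum (-0.88 ± 0.20, 0.0364). *Jun* was called lower in 154Q hippocampus (-0.50 ± 0.12, adjusted p = 0.0248) and in no other comparison with WT. *Jun* and *Junb* overlap other annotated genes whose reads the counts without strand cannot separate. *Fosb* and *Junb* were called nowhere, with lowest adjusted p values of 0.136 and 0.0512.

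The EGR zinc finger factors included the largest differences. *Egr2* in the striatum was at 10.2, 7.84, 17.1, and 12.8 CPM in WT, 2.14, 4.60, 2.71, and 1.86 in 154Q, and 1.81, 1.07, 2.34, and 3.24 in 154Q-AXH. Every WT mouse was above every mutant mouse, with log2 fold changes of -2.07 ± 0.33 (adjusted p = 0.00364) and -2.52 ± 0.35 (adjusted p = 0.00359). In 154Q-AXH *Egr2* was also lower in the hippocampus (-2.40 ± 0.53, adjusted p = 0.0496), where WT-70 at 12.6 CPM stood above the other WT mice at 3.01 to 4.63, and in the cortex (-1.503 ± 0.40, adjusted p = 0.035). *Egr3* in the striatum was at 157 to 230 CPM in WT, 91.5 to 102 in 154Q, and 91.6 to 116 in 154Q-AXH, with log2 fold changes of -0.95 ± 0.11 and -0.87 ± 0.11 (adjusted p = 0.000526 and 0.00202). It was also lower in the cortex (-0.68 and -0.83, adjusted p = 0.00234 and 0.00076) and in 154Q hippocampus (-0.74, adjusted p = 0.0281). *Egr4* was lower in the striatum (-0.69 and -0.88, adjusted p = 0.0136 and 0.00985).

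*Egr1*, a factor of long-term plasticity, was called in 154Q-AXH in the hippocampus (-1.25 ± 0.26, adjusted p = 0.0408), striatum (-1.02 ± 0.20, 0.0232), and cortex (-0.77 ± 0.20, 0.027). Of the 12 fits that each left out 1 library, 3 kept the hippocampal call, 8 the striatal call, and 7 the cortical call. In 154Q its log2 fold changes there were -0.63, -0.65, and -0.57 (adjusted p = 0.177, 0.07, and 0.0763). The calls fell in 1 mutant alone, but *Egr1* was not called between the mutants in any region. In the cerebellum its log2 fold changes were 0.01 and 0.05 (adjusted p = 0.966 and 0.863), and in the brainstem -0.20 and -0.34 (adjusted p = 0.711 and 0.762).

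Of the NR4A nuclear receptors, *Nr4a1* was at 119, 123, 180, and 171 CPM in WT striatum, 74.2 to 105 in 154Q, and 47.3 to 88.2 in 154Q-AXH. The groups did not overlap with WT, and the log2 fold changes were -0.76 ± 0.20 (adjusted p = 0.0421) and -1.06 ± 0.20 (adjusted p = 0.0207). In the hippocampus *Nr4a1* was lower in 154Q-AXH (-1.24 ± 0.24, adjusted p = 0.0304), and in 154Q its value was -0.80 (adjusted p = 0.0722). Its log2 fold changes were -0.47 and -0.74 in the cortex (adjusted p = 0.215 and 0.0675), -0.26 and -0.65 in the cerebellum (0.614 and 0.184), and -0.03 and -0.30 in the brainstem (0.947 and 0.66). *Nr4a2* and *Nr4a3* were called nowhere, with lowest adjusted p values of 0.218 and 0.0946.

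*Npas4* was not called either. In the hippocampus it was at 23.1, 6.17, 11.8, and 6.45 CPM in WT, 6.35 to 10.3 in 154Q, and 4.16 to 7.62 in 154Q-AXH, with 154Q inside the WT range and 2 of the 4 154Q-AXH mice below it. Its log2 fold changes in the 2 mutants were -0.53 and -0.95 in the hippocampus (adjusted p = 0.439 and 0.262), -0.16 and -0.40 in the striatum (0.775 and 0.644), and -0.41 and -0.22 in the cortex (0.495 and 0.781). In the cerebellum they were -0.02 and -0.46 (0.989 and 0.617), and in the brainstem -0.09 and -0.12 (0.904 and 0.944).

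Other transcription factors had some of the tightest differences. *Klf10*, a zinc finger repressor, was at 49.97, 48.8, 51.6, and 54.4 CPM in WT cortex, 26.8, 30.1, 23.5, and 25.6 in 154Q, and 24.2, 24.6, 28.1, and 24.0 in 154Q-AXH. The mutants lay far below WT, with log2 fold changes of -0.95 ± 0.07 (adjusted p = 4.03e-06) and -1.02 ± 0.07 (adjusted p = 2.03e-06). *Klf10* was also lower in the striatum (-0.89 and -0.96, adjusted p = 0.00507 and 0.00877) and in 154Q hippocampus (-0.67, adjusted p = 0.0159). *Bhlhe40*, a repressor linked to the circadian clock, was lower in the hippocampus (-0.95 ± 0.06 and -0.90 ± 0.06, adjusted p = 5.19e-05 and 0.000102) and cortex (-0.71 ± 0.10 and -0.81 ± 0.10, adjusted p = 0.000357 and 0.000145). In the striatum its log2 fold changes of -0.75 and -0.88 were not called (adjusted p = 0.106 and 0.135), and WT-220 and 154Q-AXH-217, the libraries high in striatal markers, held the lowest value of their groups, 82.0 and 39.2 CPM. *Klf4* was lower in the cortex (-0.36 and -0.43, adjusted p = 0.0402 and 0.0265). *Cebpb* (-1.17 ± 0.17, adjusted p = 0.00271) and *Atf3* (-1.005 ± 0.21, adjusted p = 0.0156) were called lower in 154Q hippocampus and in no other comparison with WT, with *Atf3* at 1.05 to 1.5 CPM in WT. In 154Q-AXH hippocampus their values were -0.59 and -0.88 (adjusted p = 0.1 and 0.0613), and neither gene was called between the mutants or in the test of genotype by region. *Maff* was called nowhere, with a lowest adjusted p of 0.275. *Bhlhe40*, *Cebpb*, and *Atf3* overlap other annotated genes.

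*Ier5l* kept its call in all 6 forebrain comparisons under every alternative tried. In the cortex it was at 42.3, 36.4, 44.7, and 40.4 CPM in WT, 13.6, 20.5, 13.1, and 18.1 in 154Q, and 15.4, 17.6, 16.8, and 16.9 in 154Q-AXH. No mutant library came near the WT range, and the log2 fold changes were -1.32 ± 0.12 (adjusted p = 8.47e-06) and -1.30 ± 0.12 (adjusted p = 1.46e-05). In the striatum it was at 39.1, 36.2, 45.9, and 40.6 CPM in WT, 12.6, 13.8, 11.3, and 12.6 in 154Q, and 16.7, 16.9, 14.6, and 17.1 in 154Q-AXH, with log2 fold changes of -1.69 ± 0.09 (adjusted p = 1.53e-06) and -1.31 ± 0.09 (adjusted p = 4.46e-05). In the hippocampus it was at 15.0, 11.0, 12.3, and 11.3 CPM in WT, 3.19, 3.59, 3.18, and 4.5 in 154Q, and 4.86, 3.46, 4.59, and 5.39 in 154Q-AXH, with log2 fold changes of -1.77 ± 0.15 (adjusted p = 0.000129) and -1.44 ± 0.15 (adjusted p = 0.000974). The groups again did not overlap with WT. In the brainstem its log2 fold changes were -0.47 and -0.34 (adjusted p = 0.0654 and 0.62), and in the cerebellum 0.19 and 0.14 (adjusted p = 0.666 and 0.797).

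*Ier5*, which is linked to the heat shock response, was at 150 to 194 CPM in WT cortex, 100 to 122 in 154Q, and 103 to 114 in 154Q-AXH (log2 fold changes -0.61 ± 0.08 and -0.62 ± 0.08, adjusted p = 0.000133 and 0.000145). It was also lower in the striatum (-0.77 and -0.80, adjusted p = 0.0222 and 0.0407) and in 154Q hippocampus (-0.61, adjusted p = 0.0274), and the striatal call in 154Q-AXH held in 2 of 12 fits that each left out 1 library. *Ier2* was called nowhere, with a lowest adjusted p of 0.432.

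**Figure D3:**
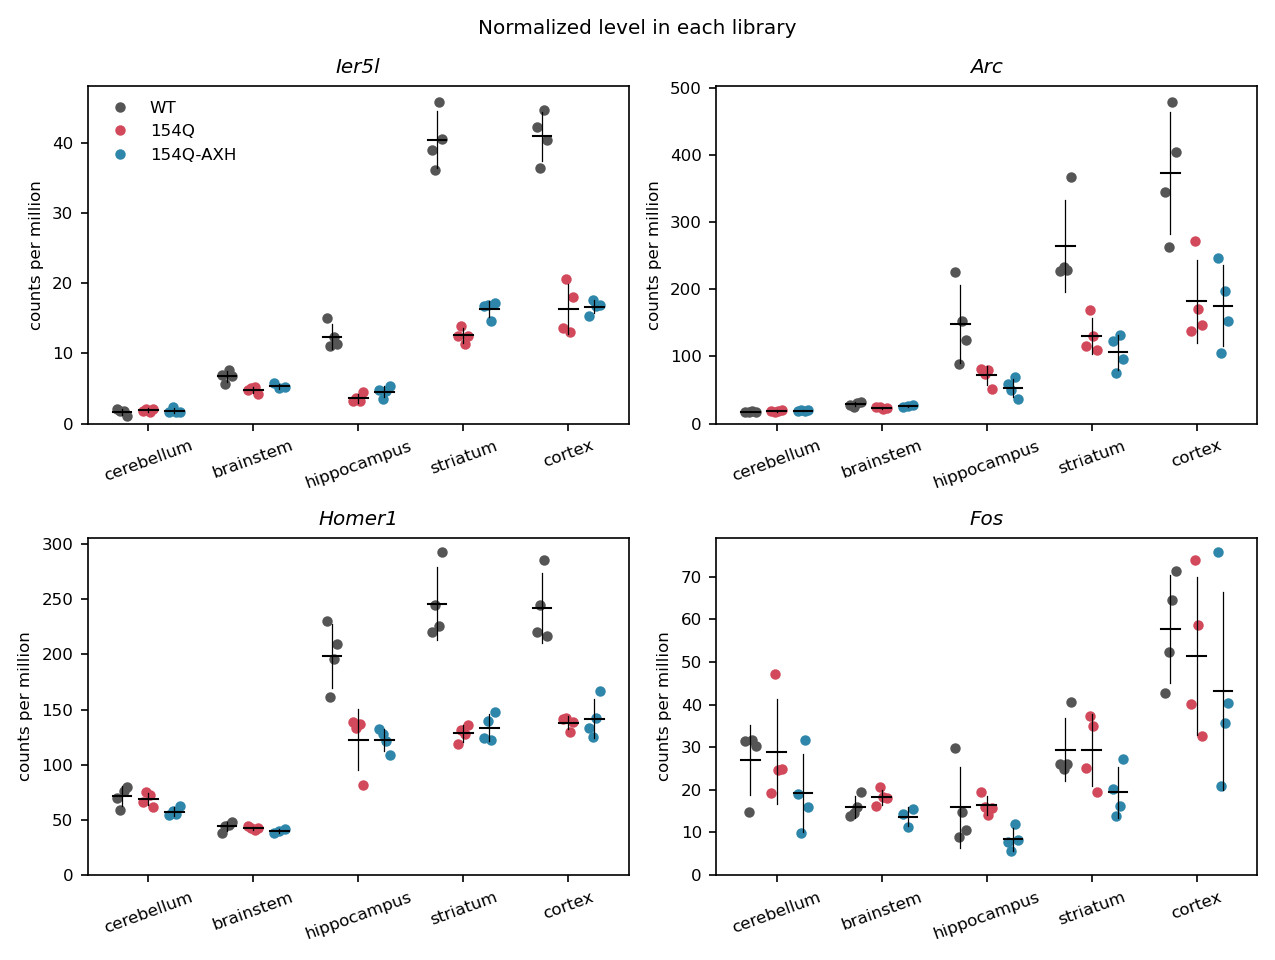
Level of *Ier5l*, *Arc*, *Homer1*, and *Fos* in each library (points, CPM) by region and genotype, with bars for the mean and lines for the SD. For *Ier5l* the mutant libraries lie below 21 CPM in the cortex and all WT libraries above 36 CPM, whereas the *Fos* points of the 3 genotypes overlap there.

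Among genes that restrain signaling, *Dusp5* was the only member called in the cerebellum and in 2 forebrain regions in both mutants. In the cerebellum, where it is highest, it was at 122, 117, 132, and 126 CPM in WT, 59.4, 75.6, 56.7, and 69.4 in 154Q, and 85.1, 63.9, 79.8, and 70.2 in 154Q-AXH. The mutants were well below WT, with log2 fold changes of -0.92 ± 0.10 (adjusted p = 4.89e-05) and -0.73 ± 0.09 (adjusted p = 0.00121). *Dusp5* was lower in the hippocampus by more (-1.36 ± 0.20 and -1.51 ± 0.20, adjusted p = 0.00314 and 0.00447) and in the cortex by less (-0.58 ± 0.13 and -0.79 ± 0.14, adjusted p = 0.0109 and 0.00217). *Dusp1*, a phosphatase of several MAP kinases, was lower in the striatum (-0.73 ± 0.12 and -0.85 ± 0.12, adjusted p = 0.00364 and 0.00315).

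*Trib1*, a pseudokinase that directs proteins to degradation, was lower in the cortex (-0.70 ± 0.12 and -0.74 ± 0.12, adjusted p = 0.00127 and 0.00125) and in the cerebellum (-0.40 ± 0.10 and -0.41 ± 0.10, adjusted p = 0.0276 and 0.0424). *Sik1*, a kinase that restrains CREB coactivators, was lower in 154Q-AXH in the cerebellum (-0.51 ± 0.12, adjusted p = 0.0424) and cortex (-0.80 ± 0.21, adjusted p = 0.0295). *Gadd45b*, a stress-response gene linked to DNA demethylation, was lower in 154Q cerebellum (-0.31 ± 0.08, adjusted p = 0.0433) and 154Q-AXH cortex (-0.56 ± 0.15, adjusted p = 0.0374). *Btg2* and *Gadd45g* were called nowhere, with lowest adjusted p values of 0.0836 and 0.153.

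Of the 4 synaptic effectors and secreted proteins, *Arc* and *Homer1* were called lower in every forebrain region in both mutants. *Bdnf* was not called in the striatum or in 154Q-AXH hippocampus, and *Nptx2* was not called in the hippocampus. *Arc* in the cortex was at 345, 264, 479, and 404 CPM in WT, 138, 272, 171, and 147 in 154Q, and 246, 104, 198, and 153 in 154Q-AXH. Only 154Q-71 lay within the WT range, and the log2 fold changes were -1.03 ± 0.25 (adjusted p = 0.015) and -1.09 ± 0.25 (adjusted p = 0.0151). In the striatum *Arc* was at 227, 233, 229, and 367 CPM in WT, 109 to 169 in 154Q, and 75 to 132 in 154Q-AXH, with log2 fold changes of -1.01 ± 0.21 (adjusted p = 0.0144) and -1.31 ± 0.21 (adjusted p = 0.009). In the hippocampus it was at 226, 88.9, 153, and 124 CPM in WT, 51.2 to 80.9 in 154Q, and 37.1 to 68.8 in 154Q-AXH, with log2 fold changes of -1.04 ± 0.26 (adjusted p = 0.0346) and -1.46 ± 0.26 (adjusted p = 0.0193). WT-70 held the highest hippocampal value, and the call in 154Q hippocampus held in 4 of 12 fits that each left out 1 library. In the cerebellum *Arc* stayed between 17.3 and 20.8 CPM in all 12 libraries, with log2 fold changes of 0.07 and 0.12 (adjusted p = 0.53 and 0.308), and in the brainstem its values were -0.30 and -0.13 (adjusted p = 0.119 and 0.81).

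*Homer1*, a scaffold of the postsynaptic density, has a short induced form and longer constitutive ones, which counts per gene do not separate. In the cortex it was at 220, 244, 286, and 217.1 CPM in WT, 129 to 143 in 154Q, and 126 to 167 in 154Q-AXH, with log2 fold changes of -0.81 ± 0.09 (adjusted p = 6.23e-05) and -0.77 ± 0.09 (adjusted p = 0.000109). It was also lower in the striatum (-0.94 ± 0.10 and -0.88 ± 0.10, adjusted p = 0.00023 and 0.000757) and hippocampus (-0.70 ± 0.15 in both, adjusted p = 0.0215 and 0.0496), where the call in 154Q-AXH held in 2 of 12 fits that each left out 1 library. *Bdnf*, a neurotrophin with several promoters, was at 41.4 to 49.1 CPM in WT cortex, 25.6 to 29.0 in 154Q, and 28.3 to 31.7 in 154Q-AXH (-0.70 ± 0.07 and -0.59 ± 0.07, adjusted p = 1.46e-05 and 7.63e-05). *Bdnf* was also lower in 154Q hippocampus (-0.53 ± 0.11, adjusted p = 0.0137) and 154Q-AXH cerebellum (-0.33 ± 0.08, adjusted p = 0.0499), where the call held in 2 of 12 such fits. In the striatum its SD between mice was 0.816. WT-220 and 154Q-AXH-217, the libraries high in striatal markers, held 9.82 and 4.44 CPM, against 17.7 to 35.4 CPM in the others. *Nptx2*, a pentraxin that clusters AMPA receptors, was lower in the striatum (-0.77 and -0.72, adjusted p = 0.00423 and 0.013) and cortex (-0.78 in both, adjusted p = 0.0014 and 0.00191). *Dusp1*, *Homer1*, and *Bdnf* also overlap other annotated genes.

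Some calls rested on few libraries. Of the 84 calls against WT, 14 held in 6 or fewer of the 12 fits that each left out 1 library. Beside those of *Egr1*, *Ier5*, *Bdnf*, *Arc*, and *Homer1* given above, they were *Egr2* in 154Q-AXH hippocampus (3 fits) and cortex (6), *Gadd45b* in 154Q cerebellum (3) and 154Q-AXH cortex (6), *Sik1* (3) and *Trib1* (4) in 154Q-AXH cerebellum, *Nr4a1* in 154Q striatum (4), and *Fosl2* (5) and *Klf4* (5) in 154Q cortex.

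The forebrain counts were repeated without the libraries that stood apart. The share of all genes called can change between fits as well and is not given for these fits. A change in these counts therefore need not be particular to the members. Without WT-220 and 154Q-AXH-217 in the striatum, a choice made after seeing the data, 16 members were called in 154Q and 17 in 154Q-AXH, against 12 and 13 with them. Those libraries had the highest striatal marker sums of their groups. The counts without them therefore do not come from purer striatal tissue and cannot show that the calls are striatal. Without the hippocampal library of 154Q-76, the counts were 13 and 16, against 13 and 8. Without the cortical library of WT-221 they were 11 and 12, against 13 and 17. With the labels of the exchanged cortical libraries reversed they were 12 and 23. In the brainstem, edgeR called 0 members in either mutant, with 5 and 8 at an unadjusted p under 0.05 (against 10.9% and 6.73% of all genes tested), and DESeq2 called 2 and 0.

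For some genes the difference from WT itself differed between regions. In a model of all 59 libraries, the interaction of genotype and region was called for 8 of 33 members in 154Q (24.2%, against 6.65% of all genes tested) and 7 of 33 in 154Q-AXH (21.2%, against 1.33%). *Ier5l* had the lowest adjusted p in both (1.4e-09 and 1.05e-06). *Klf10*, *Bhlhe40*, *Ier5*, *Dusp5*, *Arc*, and *Homer1* were called in both mutants as well, and *Jun* in 154Q alone. *Ier5l*, *Klf10*, *Bhlhe40*, *Ier5*, *Arc*, and *Homer1* were called against WT in forebrain regions and not in the cerebellum or brainstem, and *Dusp5* also in the cerebellum. With mouse as a replicate block the interaction was called for 9 and 8 members.

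No member was called between the 2 mutants in edgeR without covariates. Mouse numbers form a lower and a higher series, and WT mice carry numbers of both. All 154Q mice belong to the lower series and all 154Q-AXH mice to the higher one. The direct comparison therefore cannot separate the substitutions from the series, and their effect alone was not tested by it. With the series as a covariate, 1 member was called between the mutants in the cerebellum. Between 154Q-AXH and 154Q, edgeR called 0 members in each region, where 0.0335% of all genes tested were called in the cerebellum and 0% in each of the other regions. At an unadjusted p under 0.05 there were 4 members for cerebellum, 6 for brainstem, 5 for hippocampus, 3 for striatum, and 0 for cortex, against 7.6%, 5.35%, 11%, 3.26%, and 6.67% of all genes tested. DESeq2 called 1 in the hippocampus and 0 elsewhere. *Ier5l* in the striatum was higher in every 154Q-AXH library than in every 154Q library, by 0.38 on the log2 scale (95% interval 0.18 to 0.58), with an adjusted p of 0.945. It was the only such member there, where 529 of 18408 genes tested lay wholly higher. Members wholly higher and wholly lower were 2 and 2 in the hippocampus (530 and 497 of 21454 genes). In the brainstem they were 2 and 3 (578 and 727 of 21754 genes). *Fos* in the hippocampus had a log2 difference of -0.97 (-1.69 to -0.24), with an adjusted p of 0.422. The 154Q-AXH brainstem group had 3 libraries.

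Averaged over the members, mice differed within a genotype by an amount that varied with region. The mean deviation from the region mean (log2 CPM) was 0.21 to 0.80 in WT hippocampus, -0.44 to -0.04 in 154Q, and -0.35 to -0.12 in 154Q-AXH. The -0.44 was that of 154Q-76, whose hippocampal library held brainstem markers, and the other 154Q mice lay between -0.09 and -0.04. In the striatum the ranges were 0.25 to 0.66, -0.25 to 0.05, and -0.42 to -0.11. In both regions every WT mouse was thus above every mutant mouse. In the cortex the ranges were 0.19 to 0.56, -0.33 to 0.25, and -0.56 to 0.15, and 154Q-71 overlapped with WT. 154Q-AXH-207 was the highest of its genotype in the cortex at 0.15, while it lay between -0.28 and -0.04 in its other regions, and its cortical library is one of the exchanged pair. 154Q-AXH-209 was the lowest of its genotype in the cerebellum, brainstem, striatum, and cortex.

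**Figure D4:**
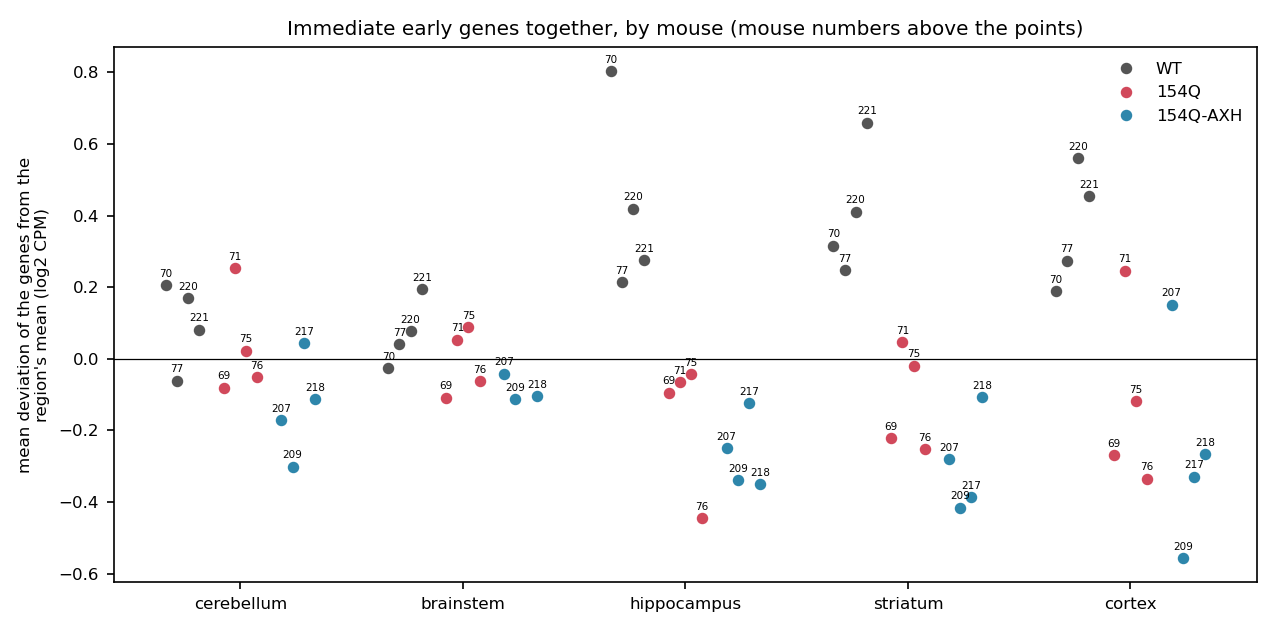
Mean deviation of the members from the region mean (log2 CPM, vertical axis) for each mouse in each region, by genotype. WT mice lie above all mutant mice in the hippocampus and striatum, and 154Q-71 reaches the WT range in the cortex.

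The signaling genes upstream of this class and other inducible genes were counted from lists of 25 and 30 genes, all of them tested. Of the upstream genes, 3 were lower and 1 was higher in 154Q hippocampus, 3 and 1 in 154Q striatum, and 5 and 3 in 154Q cortex, where 5.91%, 5.68%, and 11.1% of all genes were called. In 154Q-AXH the counts were 0 and 1, 1 and 0, and 4 and 1 (against 1.3%, 1.35%, and 7.15%), and none was called in the cerebellum or brainstem. *Camk4*, a nuclear kinase that activates CREB, was lower in both mutants in the striatum (-0.48 and -0.45, adjusted p = 0.0075 and 0.0238) and cortex (-0.37 and -0.32, adjusted p = 0.00246 and 0.00936). Of the other inducible genes, none was higher in the forebrain. In 154Q and 154Q-AXH, 5 and 1 of them were lower in hippocampus, 6 and 5 in striatum, and 11 and 11 in cortex, against 3.39% and 0.671%, 3.76% and 1.08%, and 6.71% and 4.76% of all genes. *Per1*, a clock gene that CREB induces, was lower in both mutants in the hippocampus (-0.52 and -0.62), striatum (-0.65 and -0.85), and cortex (-0.53 and -0.83). *Vgf*, a secreted neuropeptide precursor, was lower in the striatum (-0.56 and -0.43) and cortex (-0.35 and -0.37). *Dusp14* (-1.10 and -0.99 in the striatum, -0.78 and -0.77 in the cortex), *Ccn2* (-1.14 and -1.13, -0.85 and -0.75), and *Ier3* (-0.80 and -0.63, -0.47 and -0.51) were lower in both regions too. In the cerebellum 1 of these genes was higher and 2 were lower in 154Q, and in the brainstem none was called.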

How the data were processed

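RNA was sequenced from 5 regions of 12 mice. Per the submitters' processing notes and the study's methods, the authors trimmed paired reads with Trimmomatic 0.36, aligned them with STAR 2.7.2d to GRCm38.p6, and deposited whole counts of read pairs per gene without normalization. The unstranded column was used, so overlapping genes cannot be separated. Genes took 75.31% to 81.17% of read pairs. The alignment summary lines (18.83% to 24.69%) and the line of a human transgene were left out.

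Groups came from the sample labels. For each region, genes were filtered with filterByExpr, scaled by TMM, and tested by edgeR's quasi-likelihood functions (version 4.0.16, R 4.3.3), with the 3 genotypes in 1 model, and p values were adjusted by Benjamini-Hochberg over all genes tested in the region, with calls under 0.05. Standard errors were derived from the log2 fold change and the F statistic. CPM use TMM-scaled library sizes within a region, or over all libraries for WT levels across regions and for summed cell type markers. Log2 CPM use a prior count of 2. The interaction was tested over all 59 libraries. The same mouse gave every region, so mouse numbers pair libraries between regions. The code was tested on simulated data.

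The members and lists were chosen with earlier results of these data known. Every member is accounted for, with statistics where it was called against WT, and *Fos*, *Arc*, *Egr1*, *Npas4*, and *Nr4a1* are given in every region. Listed upstream and other inducible genes are named where called in both mutants in 2 or more regions. Alternatives were DESeq2 1.42.0, its size factors, no filter on low counts, only the compared genotypes, mouse number series or *Xist* as a covariate, mouse as a replicate block, exchange or removal of the 2 cortical libraries, and leaving out each library or mouse. For the striatum, removal of 2 libraries and a marker ratio covariate were added after seeing the data. Promoter windows came from a RefSeq table.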

Additional observations from a re-analysis of the deposited data

Results flagged for a closer look

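Members named in the comparisons were checked for a mouse far from the other 3 of its group, with the gap to the nearest mouse divided by the range of the group and compared with Dixon's 95% critical value. For normally distributed values chance flags about 1 in 20 groups, or 10.1 of the 202 checked, and 21 were flagged. The values were CPM and the same mice recur across groups, so the difference between these counts was not tested. In the cerebellum they were *Fos* in WT (0.907, WT-77 low at 14.8 CPM), *Nr4a1* in 154Q (0.946, 154Q-71 high at 42.3 CPM), and *Trib1* in 154Q-AXH (0.859, 154Q-AXH-209 low). In the brainstem it was *Nr4a1* in 154Q (0.862, 154Q-75 high). In the hippocampus they were *Egr2* (0.831, WT-70 high) and *Bdnf* (0.839, WT-220 low) in WT, *Egr3* (0.948), *Nr4a1* (0.875), and *Homer1* (0.903) in 154Q, and *Egr3* (0.99, 154Q-AXH-218 high) and *Bhlhe40* (0.956, 154Q-AXH-218 low) in 154Q-AXH. All 3 in 154Q hippocampus were low values of 154Q-76, whose library held brainstem markers. In the striatum they were *Fos* (0.928) and *Arc* (0.957) in WT, both high in WT-221, and *Npas4* (0.932, 154Q-AXH-207 low) and *Ier5l* (0.842, 154Q-AXH-217 low) in 154Q-AXH. In the cortex they were *Egr3* in WT (0.864, WT-220 high), *Dusp5* (0.939, 154Q-69 low) and *Sik1* (0.946, 154Q-71 high) in 154Q, and *Fosl2* (0.868, 154Q-AXH-207 high), *Klf10* (0.849, 154Q-AXH-217 high), and *Bdnf* (0.8293, 154Q-AXH-207 high) in 154Q-AXH.

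The difference from WT differed between regions in the interaction test in edgeR for 8 members in 154Q, with adjusted p of 0.0031 for *Jun*, 0.0062 for *Klf10*, 0.00169 for *Bhlhe40*, 0.00015 for *Ier5*, 1.4e-09 for *Ier5l*, 0.00887 for *Dusp5*, 0.0238 for *Arc*, and 4.67e-05 for *Homer1*. In 154Q-AXH it did so for 7, with adjusted p of 0.00107 for *Klf10*, 0.000803 for *Bhlhe40*, 5.73e-05 for *Ier5*, 1.05e-06 for *Ier5l*, 0.0417 for *Dusp5*, 0.00157 for *Arc*, and 0.0156 for *Homer1*.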

How the results depend on the processing

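Of 84 calls of members against WT, 0 reversed under any alternative, 44 were kept under all of them, and 49 in every fit that left out 1 library. The mouse number series as a covariate lost 31 of the 84 calls, the fits of only the 2 genotypes compared lost 15, *Xist* lost 12, DESeq2 and no filter lost 2 each, and DESeq2 size factors lost 1. All 154Q mice carry numbers of the lower series and all 154Q-AXH mice those of the higher one, so series and genotype can be told apart only through WT. The cause of these changes was not tested.

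Counts of called members moved by more than 1.5 times as follows, without the share of all genes called in the same fits, which can move too. With the series covariate they were 1 in 154Q cerebellum, 8 in 154Q-AXH cerebellum (2 higher), 1 between the mutants in the cerebellum, 6 in 154Q hippocampus, 3 in 154Q-AXH hippocampus, and 7 in 154Q striatum. DESeq2 called 2 in 154Q brainstem, 21 in 154Q-AXH hippocampus, and 1 between the mutants in the hippocampus. Fits of only the compared genotypes called 1 in 154Q-AXH cerebellum and 13 in 154Q-AXH hippocampus, the *Xist* covariate 4 in 154Q-AXH hippocampus, and the striatal marker ratio, added after seeing the data, 22 in 154Q-AXH striatum. With mouse as a replicate block, the paired fit called 9 and 8 members in the interaction and 33 between WT regions, and it changed no other call count by 1.5 times.

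Leaving out 1 library gave 1 to 4 members in 154Q cerebellum and 1 to 5 in 154Q-AXH cerebellum, 0 to 1 and 0 to 0 in the brainstem, 7 to 15 and 3 to 16 in the hippocampus, 7 to 14 and 10 to 16 in the striatum, and 10 to 18 and 11 to 20 in the cortex. Between the mutants it was 0 to 0 in every region. Leaving out 1 mouse gave 6 to 9 and 5 to 8 in the interaction and 31 to 33 between WT regions. In 154Q cerebellum the count was 1 without WT-220, WT-221, 154Q-69, or 154Q-75. In 154Q-AXH cerebellum it was 1 without WT-220 or WT-221 or 154Q-AXH-207, 154Q-AXH-209, or 154Q-AXH-218, 2 without 154Q-75 or 154Q-76, and 3 without 154Q-AXH-217. In 154Q brainstem it was 1 without WT-77. In 154Q hippocampus it was 8 without WT-70 or WT-220 and 7 without WT-221. In 154Q-AXH hippocampus it was 4 without WT-70 or WT-221, 3 without WT-220 or 154Q-AXH-209, 5 without 154Q-71 or 154Q-75 or 154Q-AXH-207 or 154Q-AXH-217, and 16 without 154Q-76. It was 7 in 154Q striatum without 154Q-69, and 11 in 154Q-AXH cortex without WT-220 or 154Q-AXH-218.

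Uncalled values near 0 changed sign. *Fos*, 154Q vs WT, striatum was 0.00235 with DESeq2, 0.00457 with its size factors, 0.00751 without a filter, 0.000299 with only the compared genotypes, and 0.20 with the series covariate, and -0.14 to 0.19 leaving out 1 library. With the series covariate *Fos*, 154Q vs WT, hippocampus was -0.23 and *Fos*, 154Q vs WT, cortex was 0.11, and the latter was also 0.11 with exchanged labels. *Npas4* in 154Q with the series covariate was 0.31 in the cerebellum, 0.15 in the striatum, and 0.13 in the cortex, and it was 0.0509 in the cerebellum with *Xist*, 0.0495 in the striatum without the 2 libraries, and 0.0191 with the marker ratio. *Egr1*, 154Q vs WT, cerebellum was -0.0334 with *Xist*, and *Nr4a1*, 154Q vs WT, brainstem was 0.00567 with the series covariate. Leaving out 1 library gave -0.24 to 0.25 for *Fos* in 154Q cerebellum, -0.17 to 0.53 for *Fos* in 154Q hippocampus, -0.0507 to 0.098 for *Egr1* in 154Q cerebellum, and -0.12 to 0.00444 for *Nr4a1* in 154Q brainstem. For *Npas4* it gave -0.33 to 0.11 in 154Q cerebellum, -0.76 to 0.0114 in 154Q hippocampus, -0.36 to 0.0333 in 154Q striatum, -0.41 to 0.0796 in 154Q-AXH brainstem, and -0.46 to 0.0593 in 154Q-AXH cortex.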
